A study of Neurospora crassa with 10 samples.

Results

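The genes described are the 92 protein-coding genes of Neurospora crassa whose 5' untranslated region (5' UTR) is 1500 bp or longer in the gene annotation of the genome assembly nc14. They are 1.21% of the 7622 genes with an annotated 5' UTR, among 9730 protein-coding genes in all. For each gene the transcript with the longest coding sequence (CDS) was measured, and where transcripts tied, the one with the lowest number was taken. The 5' UTR is the sum of the exon bases upstream of the first coding base, with introns left out. Members were chosen by this length alone, so the length itself is a description of the choice. The values below are properties of gene models, not of RNA levels, and the remaining 7530 genes with a 5' UTR serve as the background.

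The study behind the annotation made in situ Hi-C libraries, which record contacts between pieces of genomic DNA inside the nucleus, from germinated conidia of the wild type (WT) strains N150 and N3752. Both strains carry the name 74-OR23-1VA and no mutant was used. The 10 labelled datasets are DpnII libraries of N150 amplified with 8, 15 or 23 PCR cycles and of N3752 with 8 cycles, MseI libraries of N150 and N3752 with 8 cycles, 1 merged dataset for each enzyme, and a double digest with DpnII and MseI for each strain. The annotation belongs to all of them together, holds no value per library, and therefore has no replicates, depth or replicate error. Differences between gene groups are given as medians, quartiles and shares, with no test, because genes are not replicates.

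The 5' UTR of a messenger RNA lies between the cap and the start codon, and the small ribosomal subunit normally scans it before translation begins. A long leader can hold upstream open reading frames and folded RNA, which are known to control translation in fungi. The leader of the Neurospora gene arg-2, which encodes a subunit of an arginine synthesis enzyme, does so through a short upstream reading frame. Before splicing, a leader can also hold introns. Where a gene has several promoters or splices its leader in several ways, transcripts with the same protein can carry leaders of very different length.

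The 5' UTRs of the 92 genes ranged from 1502 to 9173 bp, with a median of 1750 bp and quartiles of 1567 and 1978.5 bp. The background genes ranged from 1 to 1493 bp with a median of 309.5 bp. Of the 92 genes, 46 had a 5' UTR of 1500 to 1749 bp, 24 of 1750 to 1999 bp, 16 of 2000 to 2999 bp and 6 of 3000 bp or more. Most members therefore lay close to the limit, and a few lay far above it. The genes just inside the limit were NCU03501 with 1502 bp, the phosphate permease gene pho-4 with 1505 bp and NCU05685 with 1506 bp. Those just outside were NCU09010 with 1493 bp, dcc-1 (NCU00939) with 1481 bp and NCU00805 with 1480 bp.

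**Figure D1:**
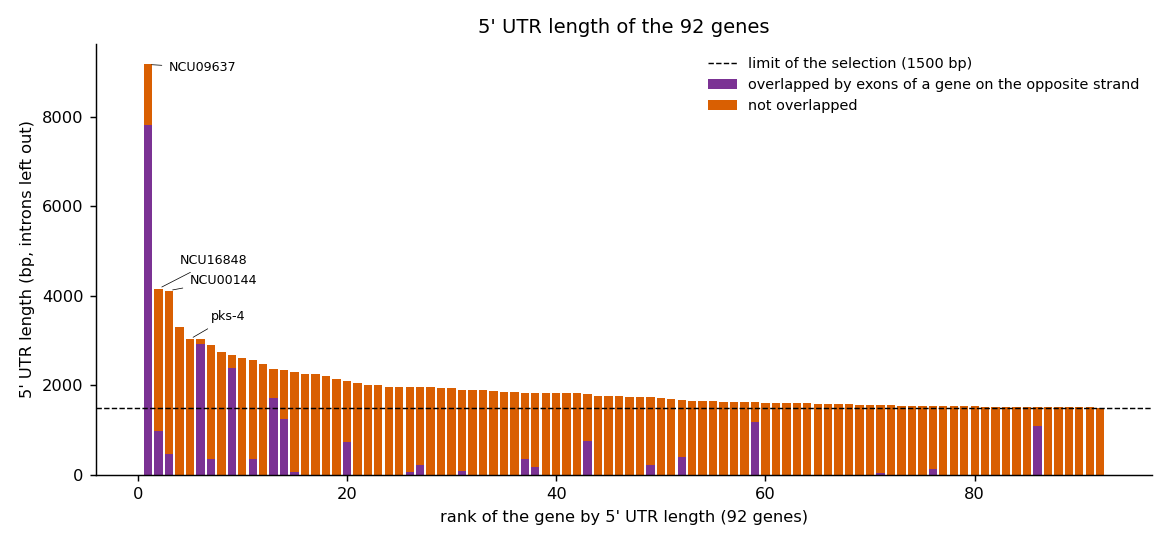
Length of the 5' UTR (y axis, bp, introns left out) of the 92 genes ranked from longest to shortest (x axis), with the part that exons of a gene on the opposite strand overlap in purple and the rest in orange, and the 1500 bp limit as a dashed line. The longest 5' UTR, of NCU09637, has 9173 bp, of which 7828 bp are overlapped, and 46 of the 92 genes lie between 1500 and 1749 bp.

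The longest 5' UTR by far belonged to NCU09637, on the minus strand of LG IV from 8110 to 19545, only 8109 bp from the first base of that LG. Its 5' UTR of 9173 bp preceded a CDS of 1290 bp. A complete gene on the plus strand, NCU09638 from 11075 to 19163, lay within that leader, and its exons covered 7828 bp or 85.3% of it. Both annotated transcripts of NCU09637 had such a leader, of 9173 and 9074 bp.

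The next was NCU16848 on LG IV (4389473 to 4394816) with 4161 bp in front of a CDS of 564 bp. Its other transcript began at 4392580 and had a leader of only 1115 bp with the same CDS. NCU00144 on LG III followed with 4118 bp, and NCU07784 on LG V with 3305 bp. These genes had a single start codon each, and in NCU00144 the shorter leader still had 4044 bp.

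The polyketide synthase gene pks-4 (NCU08399, LG VII, 1080398 to 1091850), of the enzyme class that builds fungal pigments and other secondary metabolites, had a 5' UTR of 3033 bp and the longest CDS of the 92 genes, 7701 bp. NCU05338 on LG II was its opposite, with a 5' UTR of 3026 bp and the shortest CDS, 312 bp. Exons of NCU05340 on the other strand covered 2935 bp, or 97%, of the NCU05338 leader, and only the 91 bp next to its start codon were free of that gene. The remaining genes among the 10 longest were NCU04516 with 2899 bp, NCU06055 with 2744 bp, NCU04226 with 2682 bp and NCU00717 with 2606 bp. NCU04226 had a CDS of 318 bp, no 3' UTR, and 88.9% of its leader overlapped by NCU04225.

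Gene symbols were available for 19 of the 92 genes (20.7%), against 13.5% of the background genes. The share of genes with a symbol was also higher in the longer classes below the limit, from 10.3% at 1 to 249 bp to 20.2% at 1000 to 1499 bp. They are given here by the known role of each gene, and Rsp, ecd-1 and ff-1 by name only.

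The photoreceptor genes wc-1, vvd and phy-1 were among them. The first, wc-1 (NCU02356, LG VII, plus strand, 2767393 to 2773846), encodes White Collar-1, the blue-light receptor and transcription factor that drives the circadian clock. Its 5' UTR had 1757 bp, its CDS 3501 bp and its 3' UTR 1126 bp. The gene vvd (NCU03967, LG VI, plus strand, 2363438 to 2366717) encodes VIVID, a small blue-light receptor that dampens the light response. Its leader of 1635 bp was 2.93 times as long as its CDS of 558 bp, and its 3' UTR had 951 bp. The phytochrome gene phy-1 (NCU04834, LG VI, plus strand, 994869 to 1001345), for a red-light receptor, had a 5' UTR of 1844 bp with 1 intron of 152 bp, in front of a CDS of 3726 bp.

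Of the protein kinase genes, stk-5 (NCU06179) and stk-20 (NCU02885), both serine/threonine kinase genes, had 5' UTRs of 2254 and 1943 bp and 3' UTRs of 1154 and 1359 bp. The casein kinase gene ck-1b (NCU04005) had a 5' UTR of 1956 bp and a 3' UTR of 1093 bp. The histidine kinase gene os-1 (NCU02815), for a sensor of osmotic stress, had 1567 bp, and the autophagy kinase gene apg-1 (NCU00188) had 1551 bp. These 5 genes had 3' UTRs between 763 bp in apg-1 and 1359 bp in stk-20. The median was 341 bp in the background and 509.5 bp over all members. Whether kinase genes differ from the other members was not tested.

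Among the genes of development and redox metabolism, acon-2 (NCU00478), needed for the formation of conidia, had a 5' UTR of 1549 bp and a 3' UTR of 1317 bp. The gene nor-1 (NCU07850), for a regulator of NADPH oxidase, had 1610 bp. The transcription factor gene aod-5 (NCU03938), required for expression of alternative oxidase, had 2148 bp, and aod-3 (NCU04874), which encodes an alternative oxidase, had 1521 bp. A regulator and an enzyme of the same respiratory branch were both named members, but no share of such genes was counted.

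The remaining named genes were gh61-9 (NCU05969), for a polysaccharide monooxygenase that attacks plant cell walls, with 1998 bp, nic-5 (NCU04019), a gene of the nicotinic acid pathway, with 1533 bp, pho-4 (NCU09564) with 1505 bp, Rsp (NCU02764) with 1972 bp, ecd-1 (NCU06302) with 1898 bp, and ff-1 (NCU01543) with 1681 bp. The last of these had a 3' UTR of 1388 bp.

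**Figure D2:**
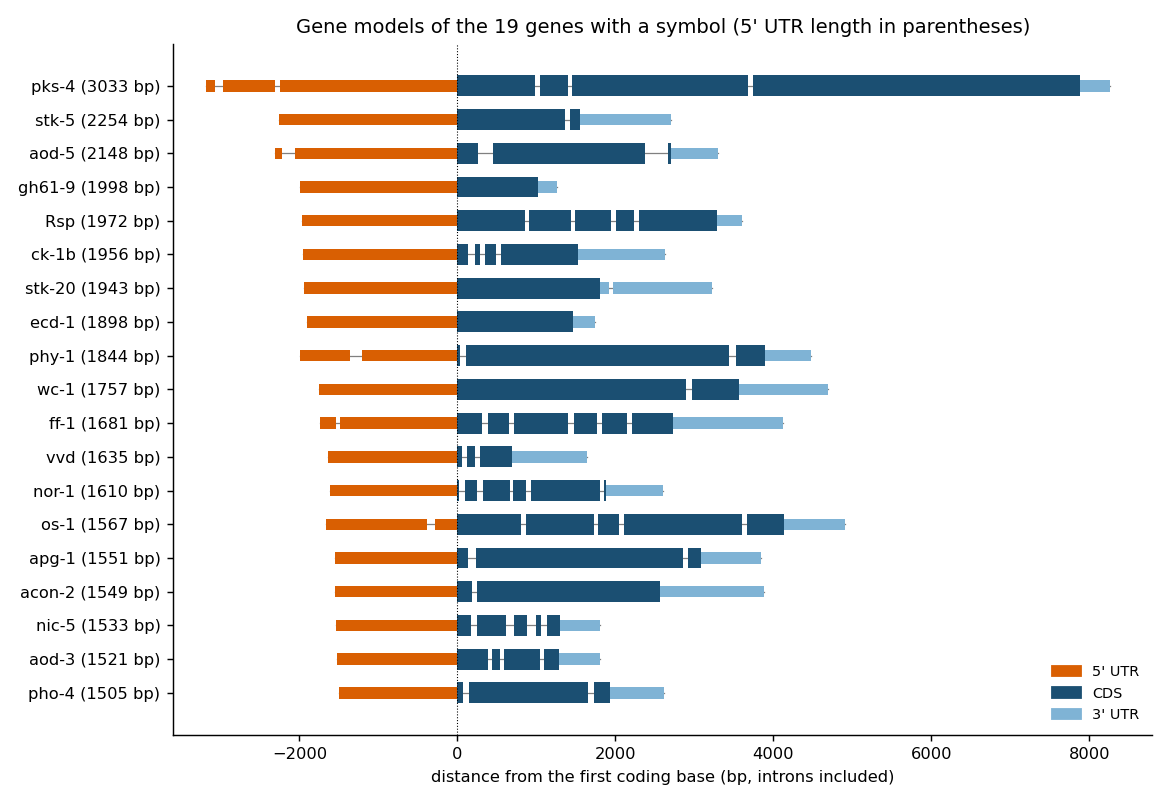
Gene models of the 19 genes with a symbol, drawn from the transcript measured, with the distance from the first coding base in bp on the x axis (introns included, upstream to the left), 5' UTR exons in orange, CDS in dark blue, 3' UTR in light blue and introns as thin lines. The 5' UTRs run from 1505 bp in pho-4 to 3033 bp in pks-4, and 5 of the 19, in pks-4, aod-5, phy-1, ff-1 and os-1, hold an intron.

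The gene lists put these names in context. Of 21 clock and light genes with a 5' UTR, 3 (14.3%) were members, and the list had a median 5' UTR of 727 bp against 314 bp over all 7622 genes. The conidiation and development list had 1 member of 26 (3.85%) and a median of 678 bp. The signaling list, mostly protein kinases, G proteins and MAP kinase pathways, had 3 of 81 (3.7%) and a median of 583 bp. The nutrient control list had 0 of 16 and a median of 550 bp, and the housekeeping list, which holds genes used in every cell, had 0 of 22 and a median of 185 bp. Over all genes with a symbol and a 5' UTR, 19 of 1038 (1.83%) were members, and the median 5' UTR was 363 bp. The members in each list were few, and the list medians differed more plainly than the member counts. The lists were chosen with earlier results of these data known.

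Not all photoreceptor genes of the clock and light list reached the limit, as cry, nop-1 and phy-2 did not. The 3 that did, phy-1, wc-1 and vvd, stood above the rest of the list. The next was the cryptochrome gene cry with 1338 bp, followed by the carotenoid synthesis gene al-2 with 1100 bp, wc-2, for the partner of White Collar-1, with 1056 bp, and frq, for the central clock protein FREQUENCY, with 1055 bp. The 3 annotated frq transcripts had leaders of 898 to 1055 bp. The transcription factor genes adv-1, csp-1 and sub-1 had 843, 751 and 740 bp, and the opsin gene nop-1 had 727 bp. Below the median lay al-3 with 667 bp, csp-2 with 664 bp, rco-1 with 520 bp, fwd-1 with 519 bp and cka with 487 bp. The shortest leaders were those of the RNA helicase gene frh with 336 bp, al-1 with 335 bp, ck-1a with 330 bp, the checkpoint kinase gene prd-4 with 212 bp and ccg-1 with 174 bp. The second phytochrome gene, phy-2, had no annotated 5' UTR, in contrast to phy-1, which had the longest on the list.

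On the nutrient control list no gene reached the limit. The transcription factor gene col-26 had the longest 5' UTR with 1337 bp, followed by nmr, for a negative regulator of nitrogen metabolism, with 1128 bp. The nitrogen regulators nit-4 and nit-2 had 951 and 761 bp, the sulfur regulator cys-3 had 929 bp, nuc-2 of the phosphate pathway had 824 bp, and the amino acid control genes cpc-1 and cpc-3 had 754 and 558 bp. The carbon and cellulose regulators clr-1, cre-1, acu-15, qa-1F and clr-2 had 542, 498, 420, 419 and 364 bp. The leader of arg-2, in which translational control is best known, had 336 bp, close to the median of all genes. The phosphate pathway genes preg and nuc-1 had 134 and 116 bp, and xlr-1 and qa-1S had no annotated 5' UTR.

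**Figure D3:**
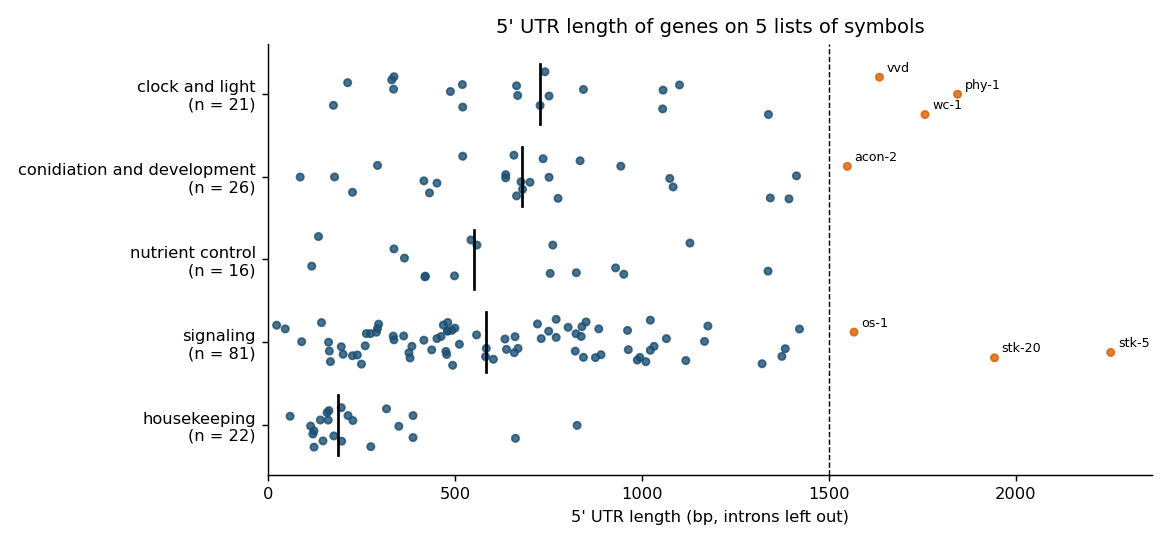
5' UTR length (x axis, bp, introns left out) of the genes on 5 lists of symbols (rows, with the number of genes that have a 5' UTR), 1 point per gene with random vertical spread, a black bar at each list's median and a dashed line at 1500 bp. Orange points are members. The clock and light list has 3 of 21 beyond the line. The housekeeping list, with a median of 185 bp, has 0 of 22. Over all genes with a 5' UTR the share of members is 1.21%.

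The coding length of the 92 genes ranged from 312 to 7701 bp with a median of 1558.5 bp and quartiles of 1056.8 and 2314.5 bp. The background median was 1335 bp. Below the limit coding length was greater in each longer class of 5' UTR, from a median of 1152 bp at a 5' UTR of 1 to 249 bp over 1338 and 1632 bp to 1809 bp at 1000 to 1499 bp. The members, with 1558.5 bp, lay below that last class, so the order of the classes did not continue past the limit. The 22 genes with a 5' UTR of 2000 bp or more had a median of 1294.5 bp, below the 1339.5 bp of all other genes with a 5' UTR. They were not split by overlap with another gene. Over all members, those with a leader overlapped by another gene had a median of 1458 bp and the others 1680 bp. A CDS of 3000 bp or more was present in 13 of 92 members (14.1%), against 10.2% of the background, and a CDS under 300 bp in 0 members, against 2.93%. Across the 7622 genes the Spearman correlation of 5' UTR length with coding length was 0.23, and across the 92 members it was -0.143. These are descriptions across genes of 1 annotation, without a test.

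The longest coding sequence after that of pks-4 was that of NCU09104 with 6096 bp, and the shortest after NCU05338 was that of NCU04226 with 318 bp. The 5' UTR was longer than the CDS in 54 of 92 members (58.7%), against 5.01% of the background, a difference in which the choice of members takes part directly. Over the members the 5' UTR made up a median of 45.7% of all exon bases, from 18.6% in NCU09104 to 89.3% in NCU04226, against a background median of 14.7%. In 36 of the 92 genes the leader took 50% or more of the mature transcript. The background was not counted this way, but its upper quartile was 22.8%, and that of the class at 1000 to 1499 bp was 39.7%. The choice of members takes part in these values as well.

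In 11 members (12%) the 5' UTR exceeded 3 times the coding length, against 0.173% of the background and 2.11% of the genes with a 5' UTR of 1000 to 1499 bp. Here too the choice of members takes part. NCU05338 had a ratio of 9.7, NCU04226 of 8.43, NCU16848 of 7.38, NCU09637 of 7.11 and NCU04516 of 6.04. The other 6 were NCU03261 with 3.62, NCU16386 with 3.37, NCU08618 with 3.33, NCU08038 with 3.27, NCU05511 with 3.26 and NCU01873 with 3.02. None of the 11 had a symbol. Exons of a gene on the opposite strand overlapped the leader in 6 of them, including all of the 5 highest ratios.

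The 3' UTR of the members had a median of 509.5 bp and quartiles of 331.8 and 683.2 bp, against a background median of 341 bp. By 5' UTR class the median went from 278 bp at 1 to 249 bp over 342 and 421 bp to 529 bp at 1000 to 1499 bp, and the members were again slightly below the class next to them. A 3' UTR of 1000 bp or more was found in 12 members (13%), against 6.08% of the background. The longest were those of NCU00538 with 1543 bp and ff-1 with 1388 bp. At the other end, NCU04226, NCU00761 and NCU09844 had no 3' UTR, and each of these 3 had a leader overlapped by an opposite-strand gene. Across the 7622 genes the Spearman correlation of the 2 UTR lengths was 0.248, and among the members it was -0.142.

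Introns in the 5' UTR were found in 41 of 92 members (44.6%), against 11.9% of the background. The share was higher in each longer class of 5' UTR, with 5.04%, 10.6%, 22.3% and 29.3% below the limit. Per 1000 bp of 5' UTR exon, however, the members had 0.307 introns and the background genes 0.346, and the classes below the limit lay between 0.313 and 0.375. Per base, the leaders of the members thus held slightly fewer introns than those of the background genes. Of the 92 genes, 51 had no intron in the leader, 28 had 1, 11 had 2 and 2 had 3. The 2 genes with 3 leader introns were NCU03033 and NCU03621.

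The 56 leader introns had a median length of 97 bp, from 48 to 1873 bp, against 104 bp in the background. Of these, 29 were shorter than 100 bp and 5 had 500 bp or more. The longest, of 1873 bp, lay in NCU05721 on LG III, and the next, of 1316 bp, in NCU05891 on LG VII. The first of these was longer than the exons of the leader it interrupts, which summed to 1586 bp, and the second was shorter than its leader of 1810 bp.

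Introns in the CDS numbered 1.68 per gene on average (median 2, quartiles 0 and 3) in the members and 1.59 (median 1, quartiles 1 and 2) in the background. Per 1000 coding bases the means were 1.25 and 1.5, in the opposite order, and the 22 genes with a leader of 2000 bp or more had 1.36 per gene, also below the other genes. No coding intron was present in 24 members (26.1%), against 22.4% of the background. The most coding introns, 5, were found in ff-1 and nor-1. Members with a leader intron had a mean of 1.37 coding introns and those without had 1.94, and 13 members had an intron in the leader but none in the CDS. No intron at all was annotated in 9 members. The split by leader intron and these 2 counts were made for the members only. Whether they differ from the background was not tested.

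**Figure D4:**
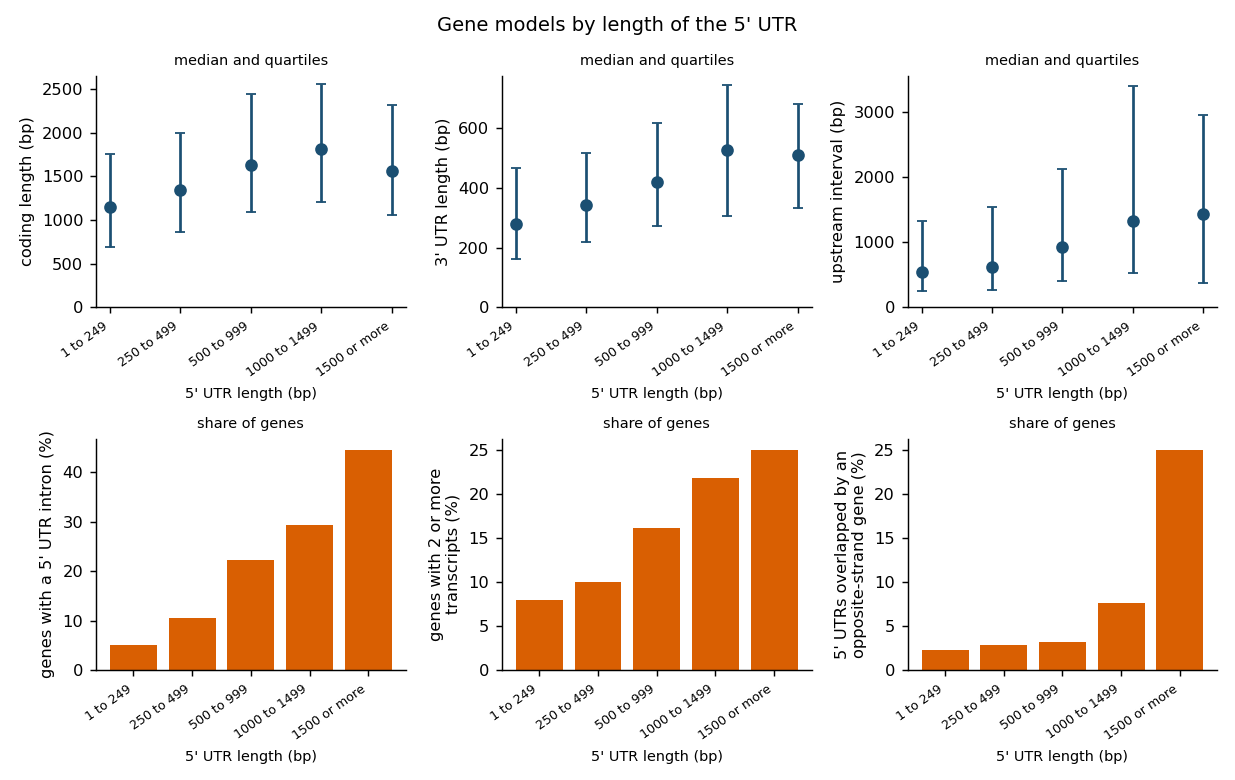
Gene models by length class of the 5' UTR (x axis, bp), with medians (points) and quartiles (bars) of coding length, 3' UTR length and upstream interval in bp in the upper row, and the percentage of genes with a leader intron, with 2 or more transcripts and with a leader overlapped by an opposite-strand gene in the lower row. The last class holds the 92 members, whose coding median of 1558.5 bp is below the 1809 bp of the class before it, while 25% of their leaders overlap an opposite-strand gene against 7.55% in that class.

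More than 1 transcript was annotated for 23 of 92 members (25%), against 11.1% of the background. The share was 21.8% at 1000 to 1499 bp. Of the members 69 had 1 transcript, 19 had 2, 3 had 3 and only wc-1 had 4. In 22 of the 23 genes (95.7%) the transcripts differed in the length of the 5' UTR, against 84.1% of the 835 background genes with 2 or more transcripts. The coding sequence was the same in all transcripts of 19 of the 23 (82.6%), against 49.1%, and the start codon in 20 (87%), against 73.2%. The alternative transcripts of these genes therefore mostly differed in the untranslated parts. Where start codons differ, the choice of the longest CDS decides which leader is measured, so the rule may take part in these shares.

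The first base of the transcripts was the same in 15 of the 23 genes (65.2%, background 44.8%). In 15 (65.2%) another transcript spliced out part of what was 5' UTR exon in the measured one, against 19.4% of the background genes. A gene whose measured transcript keeps the whole leader is more readily chosen by length, so the rule takes part in this share. All transcripts reached 1500 bp in 14 of the 23 genes, and in 9 at least 1 was shorter. Another transcript had a still longer leader in 2 (8.7%), against 30.2% of the background genes, a share in which the choice by length again takes part.

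The 4 transcripts of wc-1 shared the CDS of 3501 bp and the start codon but had leaders of 1757, 772, 469 and 469 bp. The first began at 2767393 with an unspliced leader. The others began at 2767975, 2768464 and 2768261 and each spliced out 1 intron, of 403, 217 and 420 bp. Their 3' UTRs had 1126, 1033, 166 and 166 bp. The leader of White Collar-1 mRNA was thus annotated in 3 lengths, from both different starts and splicing.

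In ck-1b the second transcript, which began at 2218936 in place of 2218227, had a leader of 838 bp with a 409 bp intron, against 1956 bp in the first. In acon-2 both transcripts began at the same base, and splicing of a 586 bp intron shortened the leader from 1549 to 963 bp. In pho-4 a 91 bp intron reduced it from 1505 to 1414 bp, below the limit. For pks-4 the leaders of 3033 and 2977 bp differed only by the length of the second intron, 57 or 113 bp. In NCU01735 the second leader had 1215 bp against 1512 bp.

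The start codon itself moved in NCU03646, whose measured transcript had a leader of 1699 bp and a CDS of 2556 bp, while the second began downstream of that start codon, in the first coding intron, with a leader of 70 bp and a CDS of 2331 bp. In NCU05685 it moved the other way. The measured transcript, with a leader of 1506 bp and a CDS of 1203 bp, began at 498334, while the second had its first coding base upstream of that, at 498283, with a leader of 1193 bp, a 1500 bp leader intron and a CDS of 1101 bp.

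The 3 genes with 3 transcripts were NCU05854, NCU09079 and NCU04269, none of which has a symbol. In NCU05854 the leaders had 2309, 2128 and 2120 bp, the shorter pair through an intron of 181 or 189 bp. In NCU04269 they had 1971, 1968 and 1790 bp. In both genes the coding sequence was the same in all transcripts. NCU09079, the last of the 3 genes with more than 1 start codon, had leaders of 2205, 1653 and 2205 bp with coding lengths of 2292, 2292 and 2130 bp. All 3 coding sequences differed, and the second began at 778391 in place of 777839. All 9 leaders of these genes passed the limit.

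**Figure D5:**
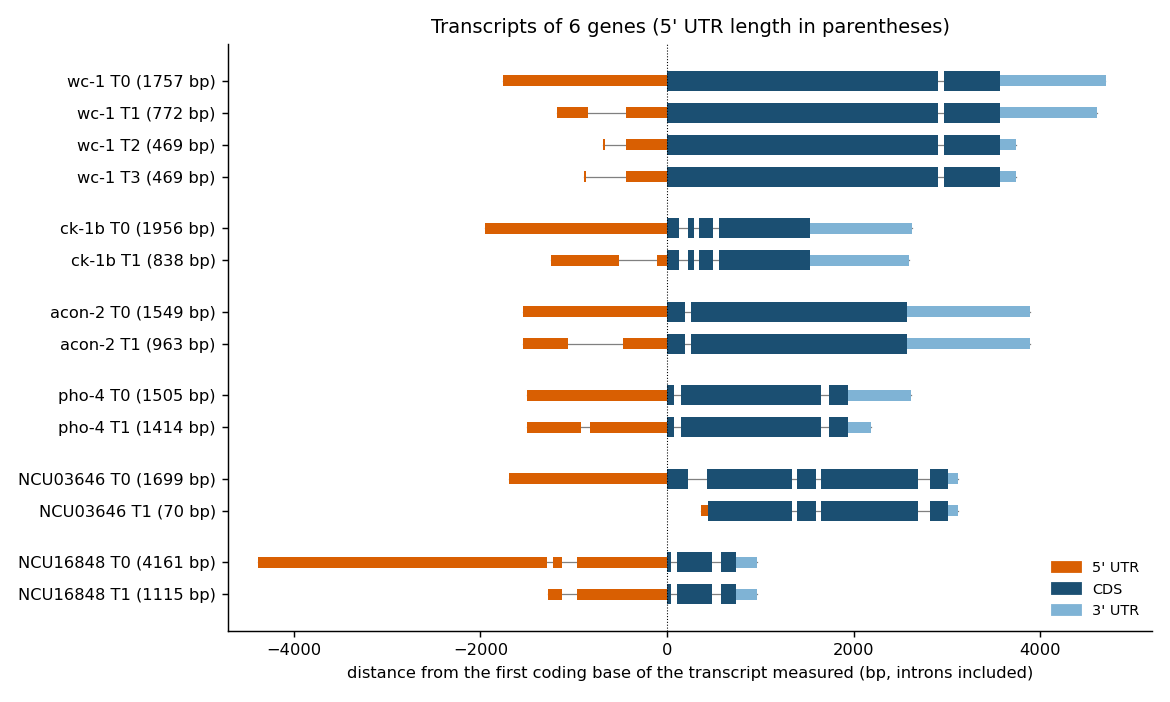
All annotated transcripts (T0 to T3) of wc-1, ck-1b, acon-2, pho-4, NCU03646 and NCU16848, with the distance from the first coding base of the measured transcript in bp on the x axis (introns included), 5' UTR exons in orange, CDS in dark blue, 3' UTR in light blue and introns as thin lines. The wc-1 leaders have 1757, 772, 469 and 469 bp with the same CDS, while in NCU03646 the second transcript, with a leader of 70 bp, starts downstream of the first coding base of the other.

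The choice of transcript also left genes out. In 14 genes outside the 92 another transcript than the measured one had a 5' UTR of 1500 bp or more, up to 1827 bp in NCU00398. One of them was fsd-1 (NCU09915), a developmental gene with 1553 bp in another transcript and 416 bp in the measured one. These 2 genes were picked out after their values were seen.

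The upstream interval, from the transcript start to the nearest other gene on either strand, had a median of 1428 bp in the members, with quartiles of 370.2 and 2952.5 bp, against 669.5 bp over 7526 background genes. The remaining 4 background genes had no gene between them and the end of the LG. From the first coding base instead of the transcript start, the medians were 3020 and 1083 bp. That distance takes in the leader, up to any gene within it, so the choice of members takes part in this difference. To the nearest gene on the same strand the medians were 3750.5 and 2949.5 bp. The median member thus had more free sequence upstream of its transcript start than the median background gene, even with the long leader already taken out of that space. This order did not hold for the longest leaders. The 22 genes with 2000 bp or more had a median interval of 580 bp, against 674 bp in all other genes with a 5' UTR. Among all members, those with a leader overlapped by another gene had a median interval of 100 bp and the others 1745 bp. The 22 genes were not split this way. The class next to the members, at 1000 to 1499 bp, had a median of 1317 bp.

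The interval was 5000 bp or more in 13 members (14.1%), against 6.38% of the background and 15.1% of the class at 1000 to 1499 bp. The widest intervals were those of NCU09104 with 54046 bp, Rsp with 50670 bp and pks-4 with 40799 bp. For acon-2 it was 6133 bp, for os-1 8018 bp and for stk-5 7901 bp. The 3 photoreceptor genes among the members had similar values of 3728 bp in wc-1, 3457 bp in vvd and 3391 bp in phy-1. An interval of 0, that is a transcript start inside another gene, was found in 11 members (12%), against 2.56% of the background and 5.44% of that class. The nearest upstream gene lay on the opposite strand in 53 members (57.6%), against 58.4% of the background, a share near the background.

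The 5' UTR exons of 23 members (25%) overlapped exons of a gene on the opposite strand, against 2.9% of the background. Below the limit the share was 2.27%, 2.81% and 3.22% in the 3 shorter classes and 7.55% at 1000 to 1499 bp. No member overlapped a gene on the same strand, against 0.611% of the background. A longer leader covers more bases, and how much of the difference comes from that was not tested. The overlap had a median of 408 bp and ran from 44 to 7828 bp, against a median of 135 bp in the 263 background genes overlapped on either strand. As a share of the leader it was smaller in the members, with a median of 19.8% against 45.5%. By class below the limit this median went from 85.5% at 1 to 249 bp over 41.3% and 25% to 26.7% at 1000 to 1499 bp.

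In 20 of the 23 genes the leader overlapped coding bases of the other gene. At least 50% of the leader was overlapped in 7 of the 23 members (30.4%), against 125 of the 263 overlapped background genes (47.5%). Over all genes the order was the opposite, with 7.61% of the members and 1.66% of the background. The 7 were NCU05338, NCU04226, NCU09637, NCU05208 with 72.8%, NCU05511 with 72%, NCU07943 with 71.8% and NCU01220 with 53.2%. In 11 of the 23 the transcript began inside the other gene, and in 12 the other gene lay further downstream. Among genes with a symbol only ff-1 with 408 bp, ck-1b with 215 bp and ecd-1 with 81 bp were in this group.

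The 23 overlapped genes had longer leaders, with a median of 1966 bp against 1647 bp in the 69 others, and shorter coding sequences, with medians of 1458 and 1680 bp. Their upstream interval had a median of 100 bp against 1745 bp. The 69 genes without an overlap lay between 1502 and 3305 bp, so that NCU07784 and pks-4 held the longest leaders free of another gene. No source used here states how the transcript ends of the annotation were set, and whether reads from the opposite strand take part in the overlapped leaders was not tested.

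The members were spread over all 7 LGs. LG I held 27 of them (1.40% of its genes with a 5' UTR), LG IV 13 (1.13%), LG III 12 (1.26%), LG V 11 (0.87%), LG VI 11 (1.49%), LG VII 10 (1.28%) and LG II 8 (0.99%). The shares per LG thus stayed between 0.87% and 1.49%. On the plus strand lay 47 of the 92, or 51.1%, against 50.1% of the background. Within 300 kb of an LG end lay 8 (8.7%), against 9.23%. The ends were taken as the first base of the LG and the last base of its last annotated gene. No 2 members were neighbors.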

How the data were processed

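The authors deposited 1 gene annotation of nc14 with 81158 records, whose first and last bases are positions in bp with no normalization. Per the submitters' notes reads were mapped with Bowtie2 2.3; no source used here names the tool that carried the genes to nc14. The file has 0 columns of single samples, so sequencing depth and replicate error do not apply.

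The 10785 protein-coding transcripts were measured from exon, CDS and stop codon records. Stop codons lie outside the CDS records and were left out of the 3' UTR. The upstream interval runs from the transcript start to the nearest other gene on either strand. RefSeq locus tags of NC12 matched 9729 of 9730 genes and gave symbols to 1118; no NC12 position was used. Product names and sequences were not used here, so the planned keyword groups were not made and none is printed.

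Members and lists were chosen with earlier results of these data known. Genes named are the 10 longest, those around the limit, members with a symbol, extremes of each measure, members with a 5' UTR over 3 times the coding length, and the clock, light and nutrient lists; other named genes are marked or illustrate transcripts. Alternatives were other limits (1000 and 2000 bp), other transcripts, the span with introns, each LG left out and other definitions of each measure. Python 3.11.15, numpy 2.4.6, pandas 2.3.3, scipy 1.17.1 and matplotlib 3.10.9 were used. In a check on simulated gene models, planted lengths and introns were recovered in 500 of 500.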

Additional observations from a re-analysis of the deposited data

How the results depend on the processing

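With the limit at 1000 bp there were 423 members and at 2000 bp 22, in place of 92. At 2000 bp 3 differences changed sign: the median coding length of members minus that of other genes was -45 bp (1294.5 against 1339.5 bp) in place of 223.5 bp, coding introns per gene differed by -0.23 in place of 0.0934, and the median upstream interval by -94 bp (580 against 674 bp) in place of 758.5 bp. The 22 genes were not split by overlap with another gene. Per 1000 coding bases the intron difference was -0.258. The coding length difference was 432 bp at 1000 bp, the 3' UTR difference 93 bp at 2000 bp in place of 168.5 bp, and the coding intron difference 0.204 at 1000 bp and 0.173 without overlapped genes. The excess of genes with 2 or more transcripts was 29.7 percentage points at 2000 bp, in place of 13.9. With the transcript of the longest leader it was 23.5 points. That choice can add only genes with 2 or more transcripts, so it takes part in the rise. The excess of genes with a leader intron was 21.6 points at 1000 bp in place of 32.7. Measured from the first coding base, the upstream difference was 1937 bp. This distance takes in the leader, so the choice of members takes part. At 1000 and 2000 bp the lists held 7 and 0 clock and light genes, 6 and 0 conidiation genes, and 15 and 1 signaling genes. Nutrient control held 2 at 1000 bp, and housekeeping held 0 at both. Taking the transcript with the longest leader gave 106 members, requiring every transcript to pass gave 83, counting introns gave 136, and leaving out an LG gave 65 to 84. An alternative chosen after seeing the data left out genes overlapped on either strand, which kept 69 members. The differences in coding length, 3' UTR, introns, transcripts and upstream interval kept their sign. This filter removed all 11 members with an upstream interval of 0. It thus takes part in the upstream difference, which was 1046 bp in place of 758.5 bp. The main limit is that transcript ends come from 1 annotation with no error on each end. No paired analysis was possible because no column gives a measurement of a single library.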
